A study of Homo sapiens with 12 samples.

Results

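Interferon-stimulated genes are the genes that cells switch on when interferon reaches them. The 44 described here were found by symbol among 26372 genes measured by RNA sequencing in HCT116, a human colorectal carcinoma cell line. All 44 of the listed symbols were present. They cover the main effector families of the response, the sensors of foreign RNA, the ISG15 system and the transcription factors that drive the programme. Of the 44 genes, 39 reached 1 FPKM (fragments scaled by transcript length and by the mapped fragments of the library) in at least 1 group, and 36 reached it in all 6 groups. TRIM22 passed this filter through a single group, WT mock, and MX1 and DHX58 passed in some groups only.

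Cells were either KDM3A knockout (KO) or wild type (WT) HCT116, and each genotype was grown in 3 culture states. KDM3A encodes a demethylase that removes methyl groups from lysine 9 of histone H3, a modification found at silent chromatin. Mock cells were kept in normal medium, starved cells were moved to serum-free medium, and refed cells received fetal bovine serum after 24 h without serum. The time from serum addition to harvest is not given, and the labels do not say how the knockout was made or whether the KO cells are 1 clone. In the labels 2 samples, numbered 1 and 2, are listed for each of the 6 groups, but each group has 1 deposited column of values named for the group. How the column was made from its 2 samples is not stated, so each group enters here as 1 value with no replicate error, and sequencing depth is unknown.

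Type I and type III interferons bind receptors that activate the kinases JAK1 and TYK2, which phosphorylate STAT proteins. STAT2 and IRF9 belong to the complex ISGF3, which binds the interferon-stimulated response element (ISRE) in the promoters of target genes. Epithelial cells also hold basal levels of many of these genes without added interferon.

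The ISRE core was searched as GAAA, any 2 bases and GAAA again, on both strands of RefSeq promoter windows, which run from 250 bases before to 50 bases after each annotated start (GRCh38.p14). Windows were held for 34 of the 44 genes, and 23 of these 34 genes (67.6%) had at least 1 match, against 4.38% of 27305 genes with a window. At least 2 matches were found in 41.2% of the 34 genes and in 0.311% of all genes. Overlapping matches were counted separately. The gamma-activated site, searched as TTCNNNGAA, which reads the same on both strands, was found in 10 of the 34 genes (29.4%) and in 9.38% of all genes. It can overlap an ISRE match, as it does in BST2. The upstream stretches of 6 genes on which the results turn are shown 5′ to 3′ on the strand of the gene, with bases of ISRE matches in capitals. IFIT3 and PARP9 had the largest rise on starvation, IFI6 and ISG15 were among the genes that rose most in KO cells, and BST2 and IFITM1 fell most. The IFIT3 stretch lies before 1 of its 2 annotated starts.
IFIT3, chr10:89332419-89332498, plus strand: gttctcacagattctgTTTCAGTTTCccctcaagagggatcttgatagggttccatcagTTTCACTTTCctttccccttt
PARP9, chr3:122564301-122564341, minus strand: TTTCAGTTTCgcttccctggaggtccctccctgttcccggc
IFI6, chr1:27672273-27672352, minus strand: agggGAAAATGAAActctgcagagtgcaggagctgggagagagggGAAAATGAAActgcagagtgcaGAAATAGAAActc
ISG15, chr1:1013367-1013416, plus strand: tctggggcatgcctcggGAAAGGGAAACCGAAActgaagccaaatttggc
BST2, chr19:17405731-17405780, minus strand: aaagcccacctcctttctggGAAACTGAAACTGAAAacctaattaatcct
IFITM1, chr11:313980-314029, plus strand: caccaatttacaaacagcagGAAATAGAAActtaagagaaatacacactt
IFI6 carries 3 matches within 80 bases, in which GAAAATGAAA stands in 2 places, whereas ISG15 and BST2 each carry 2 overlapping matches in an unbroken run. The stretches of IFITM1 and PARP9 show 1 match each, and IFITM1 has another match that spans its start, outside the stretch. The PARP9 match is shared with DTX3L. From the PARP9 start used here the genes are divergent, with starts 38 bases apart, and the same bases count for both. A further annotated PARP9 start lies past the DTX3L start, on the other strand. A sequence match says nothing on whether the site is bound in these cells.

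The labels and the groups were checked on a few genes outside the list. KDM3A had 3.15, 3.01 and 3.59 FPKM in mock, starved and refed KO cells, against 41.3, 17.8 and 19.8 FPKM in the matching WT cells. Of 10 colon epithelial markers 8 were at 1 FPKM or more in all groups, while VIL1 and LGALS4 stayed at or below 0.157 FPKM. Of 10 leukocyte markers only CD68 reached 1 FPKM. In WT mock, 15 of 16 endothelial markers reached 1 FPKM and exceeded each of the other groups at least 2-fold. PECAM1, CDH5, ENG and VWF had 15.5, 25.8, 33.2 and 75.9 FPKM there, and at most 0.683 FPKM in the other 5 groups. The sum of the 16 markers was 92.4, 70.6 and 72.1 FPKM in mock, starved and refed KO cells, against 295, 59.3 and 49.97 FPKM in WT cells in the same order of states. Most of the sum outside WT mock was EGFL7, the marker without an excess in WT mock. It had 84.3, 63.8 and 65.1 FPKM in KO cells and 77.2, 52.5 and 44.2 FPKM in WT cells. Of the 44 interferon-stimulated genes, 5 were highest in WT mock (TRIM22, OAS2, SAMD9L, MX1 and DHX58), and TRIM22 alone exceeded every other group more than 4-fold. Counts that rest on WT mock are therefore given beside counts that do not use it. The averaged KO against WT and starvation differences of single genes include WT mock. In bulk RNA, fewer cells expressing a gene and less RNA per cell cannot be told apart.

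Between KO and WT cells the interferon-stimulated genes differed in both directions. IFI6, IFI27, SAMD9, PARP10, ISG15 and IRF7 were highest in KO relative to WT, with averaged log2 differences of 1.23 to 1.88, and BST2 and IFITM1 were lowest, at -3.40 and -2.21. Averaged over the 3 states, 22 of the 39 measured genes rose in KO cells and 4 fell, IFIT2, IFITM1, BST2 and PARP14. The test was limma on log2(FPKM + 1) with genotype and state as additive terms, and adjusted p-values over 13456 features at a threshold of 0.05. With 1 value per group its error is the unevenness of the genotype difference between states, not replicate error. The background was high in 1 direction: 28.7% of all features rose in KO cells and 4.58% fell. The median averaged log2 difference was 0.43 for the 39 genes and 0.16 for all features. By count alone, KO exceeded WT in 66.7%, 66.7% and 61.5% of the genes in mock, starved and refed cells, against 60.1%, 76.9% and 79.8% of all features. Genes outside the list differed as well: 7 of the 8 measured colon epithelial markers rose, with a median of 0.88, led by KRT8 at 1.25 ± 0.08 and KRT18 at 1.22 ± 0.08. CD68 rose by 1.66 ± 0.11. Their part in the result was not tested. When the groups were rescaled so that the median of all features was near 0, by median ratio or by upper quartile, 19 genes rose under both scalings and 6 or 7 fell. Over all features the split under these scalings was 12.3% higher and 10.8% lower, or 10.8% higher and 12.7% lower. The median of the genes was then 0.27 or 0.25. With no filter on low values 8 of the 44 genes rose and 2 fell, against 2.81% and 0.914% of all 26372 features. The counts of 22 and 4 were 23 and 6 without WT mock, where 37.4% of all features rose and 5.01% fell. They were also 23 and 6 without KO mock, against 37.5% and 4.99%. With 1 mock value gone the other sets the mock term alone. Both fits thus compare KO with WT on the starved and refed values only, and are not separate checks. With 1 value fewer the fit has 1 residual degree of freedom, and no gene rose without the starved or the refed value of either genotype. Between 0 and 1 gene fell in those 4 fits, and both counts were 0 without the KO starved or the WT starved value. Calls were as rare over all features in those fits, where at most 0.119% rose and at most 0.119% fell.

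**Figure D1:**
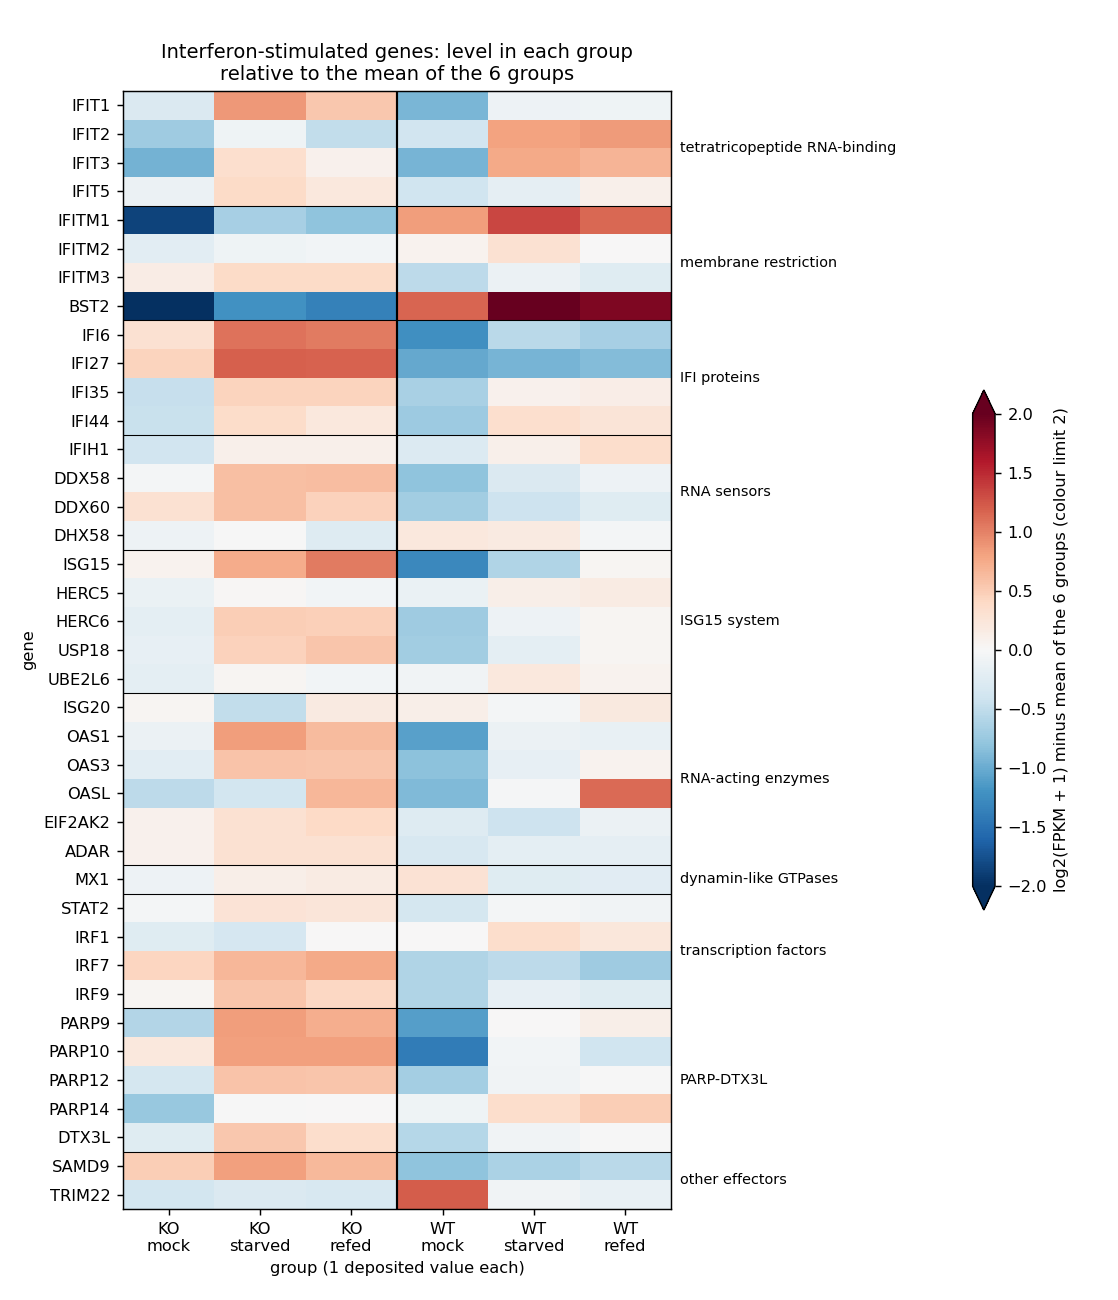
Level of each of the 39 measured interferon-stimulated genes in each group, as log2(FPKM + 1) minus the mean of the 6 groups, with colours limited at 2 on either side. Rows are ordered by role, and columns give KO then WT in mock, starved and refed states. BST2 and IFITM1 are low in all 3 KO groups, while IFI6, IFI27 and IRF7 are above their mean there. ISG15 is high in starved and refed KO cells, and its KO mock level (867 FPKM) is close to that of WT refed cells (848 FPKM).

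The spread among the genes was wide in both directions. A difference of at least 2-fold in FPKM + 1, with no test, was seen in mock cells for 6 genes higher and 3 lower in KO, where 2.27% of all features were higher and 3.22% lower. The 3 lower genes include TRIM22, which passed the filter through WT mock alone. In starved cells 6 genes were higher and 2 lower, against a background of 2.59% and 1.46%. In refed cells 6 were higher (3 under either rescaling) and 3 lower, against 3.41% and 1.51%. IFI6, IFI27, ISG15, IRF7 and SAMD9 were at least 2-fold higher in KO in all 3 states, and BST2 and IFITM1 at least 2-fold lower in all 3. Under either rescaling the 5 higher genes were 2, IFI6 and IFI27, and the 2 lower genes stayed past 2-fold. Among all features 1.27% were 2-fold higher in every state and 0.602% were 2-fold lower. KO exceeded WT in all 3 states for 23 of 39 genes (59.0%), close to the 54.3% of all features. KO was below WT in all 3 states for 11 genes (28.2%), against 13.0% of all features. The 11 include TRIM22 and DHX58, which reached 1 FPKM in WT groups alone, so their direction is tied to the filter.

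**Figure D2:**
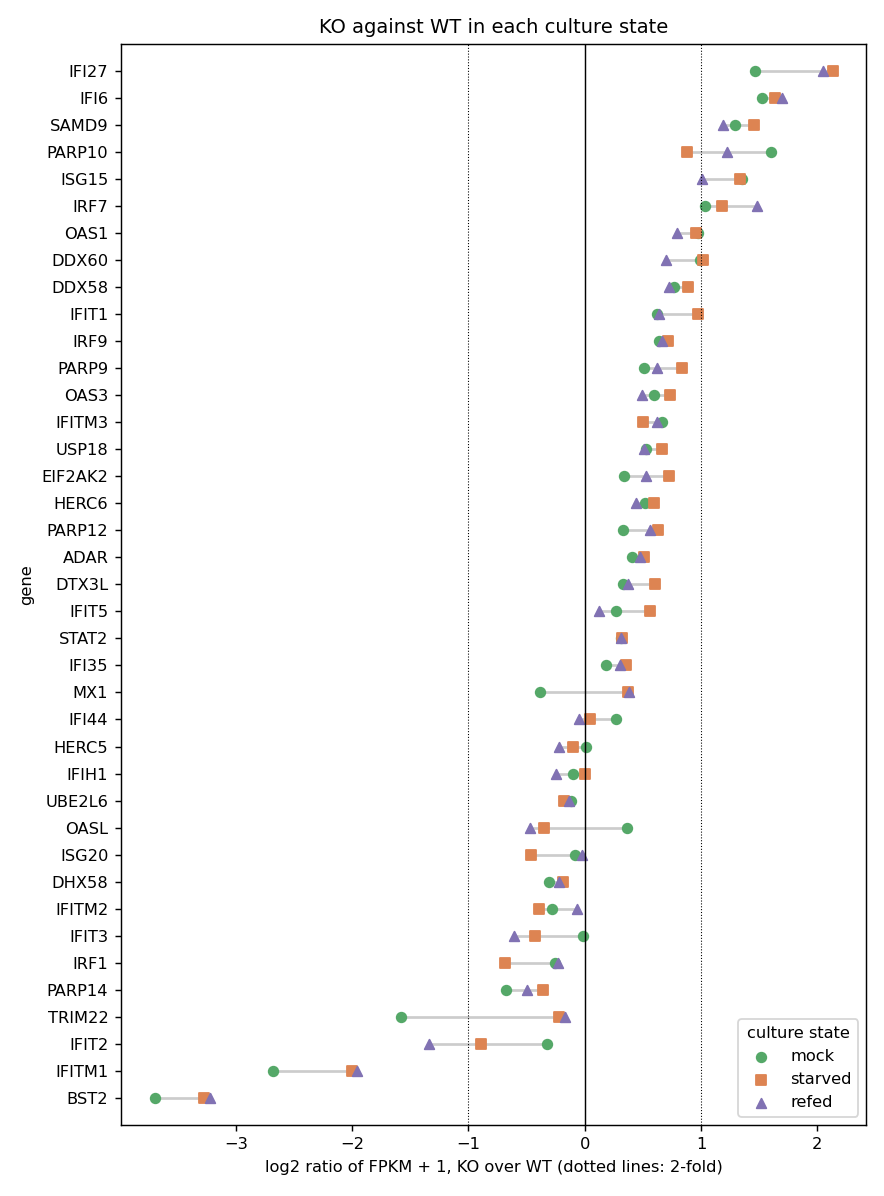
Log2 ratio of FPKM + 1, KO over WT, for each of the 39 genes in mock, starved and refed cells, ordered by the mean of the 3 ratios. Dotted lines mark 2-fold. IFI27 reaches 2.13 in starved cells and BST2 lies between -3.70 and -3.22.

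Among the small interferon-induced IFI proteins 3 of 4 rose in KO cells. IFI6, a mitochondrial and endoplasmic reticulum protein with antiviral activity, had 507, 877 and 846 FPKM in mock, starved and refed KO cells, against 176, 282 and 261 FPKM in mock, starved and refed WT cells. Every KO value exceeded every WT value, with an averaged log2 difference of 1.62 ± 0.08 (SE, limma adjusted p = 0.0024). IFI27, a related membrane protein, had 184, 312 and 307 FPKM in KO cells and 66.2, 70.5 and 73.5 FPKM in WT cells over the same states. Its difference averaged 1.88 ± 0.15 (limma adjusted p = 0.00528). The WT values were close to each other, whereas the starved and refed KO values stood above KO mock. IFI35, a partner of NMI in a cytokine-regulated complex, rose by 0.28 ± 0.06 (limma adjusted p = 0.0344), and this call was lost under both rescalings (0.09 and 0.07). IFI44 had 3.74, 7.40 and 6.51 FPKM in KO cells and 2.93, 7.16 and 6.77 FPKM in WT cells. The KO and WT ranges overlapped almost fully (limma adjusted p = 0.419).

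The ISG15 system attaches the ubiquitin-like protein ISG15 to other proteins. ISG15 itself had 867, 1384 and 1708 FPKM in mock, starved and refed KO cells, against 338, 547 and 848 FPKM in mock, starved and refed WT cells. It was the highest of the 44 genes in KO and, apart from WT mock where IFITM3 was higher, in WT. The averaged log2 difference was 1.23 ± 0.11 (limma adjusted p = 0.00586), with single-state values of 1.36, 1.34 and 1.01. HERC6, of the same family as the human ISG15 ligase HERC5, rose by 0.52 ± 0.06, and USP18, the protease that removes ISG15 and dampens the type I receptor, rose by 0.57 ± 0.06 (limma adjusted p = 0.0105 and 0.00803). The conjugating enzyme UBE2L6 and the ligase HERC5 did not pass the test, at -0.14 and -0.10. UBE2L6 ranged from 30.5 to 35.9 FPKM in KO cells and from 33.2 to 40.7 FPKM in WT cells.

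The membrane restriction factors, which block virus entry or release, went in opposite directions. BST2 (tetherin), which holds budding virions at the cell surface, had 1.43, 5.13 and 4.55 FPKM in mock, starved and refed KO cells, against 30.5, 58.3 and 50.8 FPKM in mock, starved and refed WT cells. The highest KO value was below the lowest WT value, and the averaged log2 difference was -3.40 ± 0.11 (limma adjusted p = 0.00187). Because 1 FPKM is added before the ratio, this understates the difference at the low KO levels. IFITM1, which restricts fusion at the cell membrane, had 7.16, 17.6 and 15.8 FPKM in KO cells, against 51.3, 73.1 and 64.3 FPKM in WT cells, an averaged -2.21 ± 0.16 (limma adjusted p = 0.00435). Its neighbour IFITM3, which acts on endosomes, had 653, 769 and 770 FPKM in KO cells and 410, 543 and 499 FPKM in WT cells. It rose by 0.60 ± 0.08 (limma adjusted p = 0.0131), while IFITM2 did not pass, at -0.25 ± 0.09. IFITM1, IFITM2 and IFITM3 are close copies, and how the authors counted reads that fit more than 1 of them is not stated, so the split between them is uncertain. Their sum was 731, 864 and 865 FPKM in KO cells, against 549, 718 and 646 FPKM in WT cells, so the summed family was higher in KO while IFITM1 was lower.

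**Figure D3:**
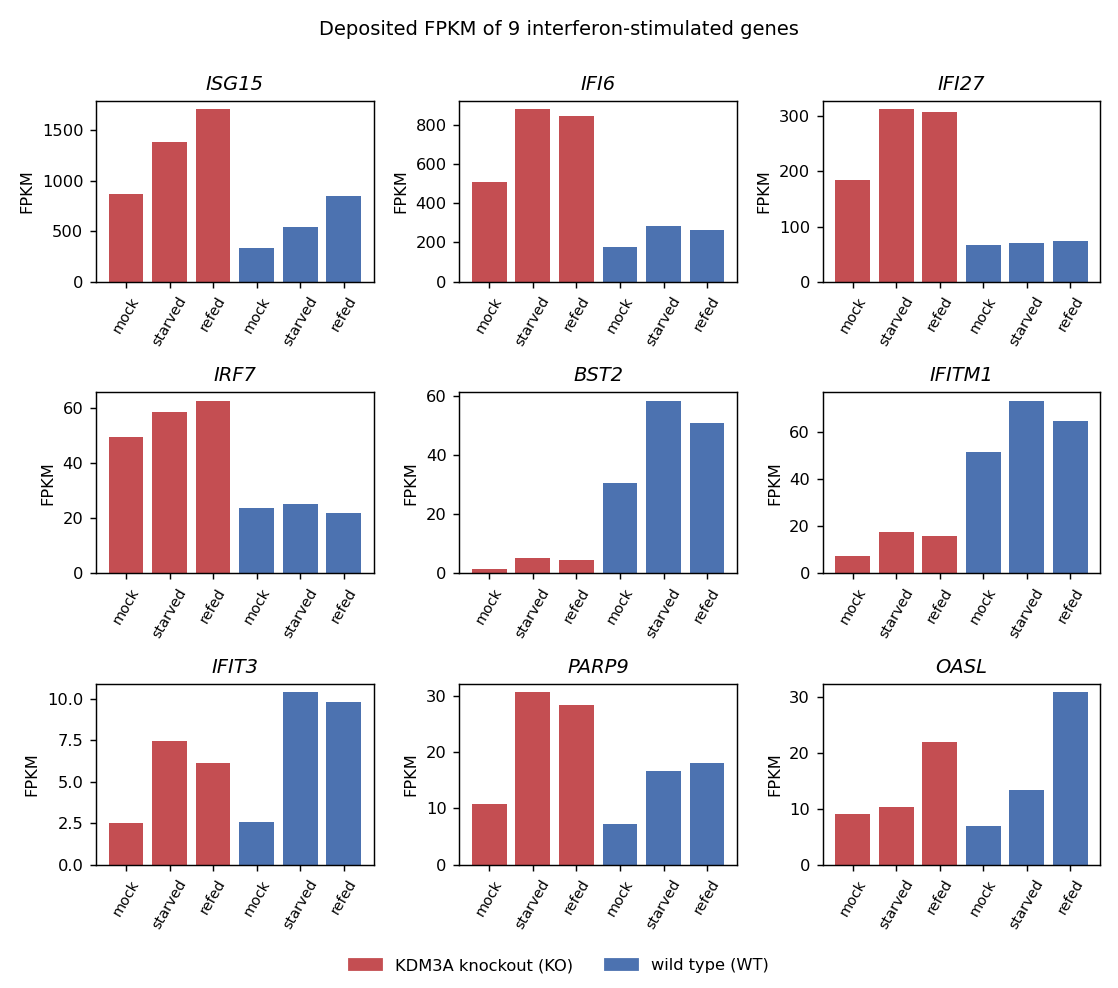
Deposited FPKM of 9 of the genes in mock, starved and refed KO cells and in mock, starved and refed WT cells, 1 bar per group on axes that start at 0. ISG15, IFI6, IFI27 and IRF7 are higher in KO in every state, BST2 and IFITM1 are lower, and OASL is highest in the refed group of each genotype.

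The IFIT proteins, which bind foreign RNA through tetratricopeptide repeats, also split, although all lie in 1 cluster on chromosome 10. IFIT1, which binds RNA lacking the host cap methylation, had 13.3, 31.0 and 24.5 FPKM in KO cells, against 8.26, 15.3 and 15.4 FPKM in WT cells. It rose by 0.75 ± 0.09 (limma adjusted p = 0.0108), and KO exceeded WT in each state. IFIT2, a partner of IFIT1 and IFIT3, had 1.51, 2.86 and 1.92 FPKM in KO cells, against 2.14, 6.14 and 6.37 FPKM in WT cells. It fell by 0.85 ± 0.20 (limma adjusted p = 0.0371; 0.0519 under median-ratio rescaling), with single-state values of -0.33, -0.89 and -1.33. IFIT3 had 2.52, 7.48 and 6.13 FPKM in KO cells, against 2.55, 10.4 and 9.85 FPKM in WT cells. The mock values were nearly equal and the KO values lower in the other states, and the averaged difference did not pass (-0.35, limma adjusted p = 0.0939). IFIT5 was between 5.72 and 8.54 FPKM in KO cells and between 4.57 and 6.82 FPKM in WT cells (0.32, limma adjusted p = 0.0667). IFIT1, IFIT2 and IFIT3 overlap LIPA on the other strand, and the counting is not stated to use strand, so reads of such partners cannot be told apart. This holds for 18 of the 44 genes, among them IFI6, ISG15, PARP9 and PARP10.

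Of the sensors of viral RNA, DDX58 (RIG-I) rose by 0.79 ± 0.06, with 9.22 to 15.1 FPKM in KO cells against 5.01 to 8.73 FPKM in WT cells (limma adjusted p = 0.00459). DDX60, a helicase linked to RIG-I signalling, had 5.58, 7.07 and 6.31 FPKM in mock, starved and refed KO cells, against 2.30, 2.997 and 3.50 FPKM in mock, starved and refed WT cells. The lowest KO value was above the highest WT value, with an averaged 0.90 ± 0.08 (limma adjusted p = 0.00666). IFIH1 (MDA5), the sensor of long double-stranded RNA, did not pass (-0.11, limma adjusted p = 0.256) and overlapped between genotypes, with 3.94 to 5.92 FPKM in KO cells and 4.29 to 7.19 FPKM in WT cells. DHX58 (LGP2), a regulator of both sensors, was at or below 1.11 FPKM in all groups and did not pass.

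Of 6 enzymes that act on RNA, 4 rose. OAS1 and OAS3, which make the second messenger that activates RNase L, rose by 0.91 ± 0.06 and 0.61 ± 0.07 (limma adjusted p = 0.00413 and 0.0101). EIF2AK2 (PKR), which halts translation on double-stranded RNA, and ADAR, which edits adenosines in it, rose by 0.53 ± 0.09 and 0.46 ± 0.06 (limma adjusted p = 0.018 and 0.0124). ADAR ranged from 37.6 to 44.2 FPKM in KO cells and from 28.2 to 31.2 FPKM in WT cells, without overlap. OASL, an OAS relative without synthetase activity that boosts RIG-I signalling, did not pass (-0.15, limma adjusted p = 0.526). It was 0.36 higher in KO in mock cells and differed by -0.35 and -0.47 in starved and refed cells. The exonuclease ISG20 did not pass, at 3.45 to 6.10 FPKM in KO cells and 5.14 to 6.22 FPKM in WT cells. The dynamin-like GTPase MX1 was at 0.719 to 1.05 FPKM in KO cells and 0.549 to 1.25 FPKM in WT cells, also with no call.

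The PARP-DTX3L group holds PARP-family proteins of the interferon response and DTX3L, the ubiquitin ligase that binds PARP9. PARP9 had 10.7, 30.6 and 28.3 FPKM in KO cells, against 7.27, 16.7 and 18.1 FPKM in WT cells. It rose by 0.65 ± 0.08 (limma adjusted p = 0.0114). PARP10, a mono-ADP-ribosyltransferase, had 10.5, 16.6 and 16.5 FPKM in KO cells and 2.77, 8.54 and 6.50 FPKM in WT cells. Every KO value exceeded every WT value, and the averaged difference was 1.24 ± 0.15 (limma adjusted p = 0.0101). PARP12 rose by 0.51 ± 0.08 and DTX3L by 0.43 ± 0.08, and the DTX3L call was lost on rescaling (0.27, limma adjusted p = 0.0557 by median ratio). PARP14, a cofactor of STAT6, fell by 0.51 ± 0.08 (limma adjusted p = 0.0175), with 1.37 to 3.004 FPKM in KO cells against 2.79 to 4.64 FPKM in WT cells. Of the 3 neighbours on chromosome 3, PARP9 and DTX3L thus rose and PARP14 fell.

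Of the transcription factors, IRF7, which drives interferon genes, had 49.5, 58.4 and 62.6 FPKM in KO cells, against 23.7, 25.2 and 21.8 FPKM in WT cells. It rose by 1.23 ± 0.10 (limma adjusted p = 0.00558), and the lowest KO value was nearly 2-fold the highest WT value. IRF9, the DNA-binding subunit of ISGF3, rose by 0.67 ± 0.06 (limma adjusted p = 0.00607), with 37.9 to 54.7 FPKM in KO cells and 24.0 to 32.9 FPKM in WT cells. STAT2 rose by 0.32 ± 0.05 (limma adjusted p = 0.0177), a call lost under both rescalings (0.13 and 0.11). IRF1, a factor induced mainly by interferon gamma, did not pass (-0.39, limma adjusted p = 0.0556). SAMD9, an antiviral protein that restricts poxviruses, had 11.1, 14.2 and 12.5 FPKM in KO cells, against 3.94, 4.54 and 4.93 FPKM in WT cells. Its KO values lay far above all WT values, with 1.31 ± 0.07 (limma adjusted p = 0.0027). Its neighbour and relative SAMD9L was at or below 0.45 FPKM in every group.

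TRIM22, a RING-domain antiviral protein, had 0.113, 0.175 and 0.149 FPKM in mock, starved and refed KO cells, against 2.33, 0.369 and 0.293 FPKM in mock, starved and refed WT cells. On the scale of FPKM + 1 it passed 2-fold in mock cells alone, while the ratio of the deposited FPKM, KO over WT, was 0.0484, 0.475 and 0.510 in the 3 states. WT mock also held the endothelial markers, and their part in the mock difference was not tested. The 5 genes below 1 FPKM in every group were IFI44L, MX2, OAS2, SAMD9L and XAF1. The highest value among them was 0.464 FPKM, for IFI44L in WT refed cells, and MX2 did not exceed 0.0703 FPKM. They took no part in the counts over the 39 genes. The fit with no filter on low values and the count of genes highest in WT mock cover all 44 and include them.

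Starvation raised the genes as a group in both genotypes. Averaged over genotypes, 21 of the 39 rose in starved cells and none fell by limma, whereas among all features 5.83% rose and 19.4% fell. At an unadjusted p under 0.05 the limma fit gave 28 of the 39 and 5728 of 13456 features, both directions together. ISG20, lower in starved cells, was among the 28. The median averaged log2 difference was 0.50 for the genes and -0.13 for all features. After rescaling by median ratio or upper quartile 26 or 25 genes rose and 0 fell, with medians of 0.64 and 0.63, and 15.2% and 14.5%, or 14.6% and 15.3%, of all features rose and fell. Starved exceeded mock in both genotypes for 33 of the 39 genes (84.6%), against 24.7% of all features, and only ISG20 was lower in both. At least 1.5-fold in both was reached by 14 genes (35.9%), against 1.51% of all features. With no filter on low values the fit made no call in either direction, for these genes or for any of the 26372 features. The calls rest on the evenness of 6 values. Without KO mock 21 rose and 2 fell, against 4.71% and 26.6% of all features. Without any 1 of the other 5 values, WT mock included, neither direction had a call. In those fits at most 0.134% of all features were called in each direction. The comparison within KO does not use WT mock. There 37 of 39 genes (94.9%) were higher in starved cells, against 41.6% of all features. The median was 0.62, against -0.06 for all features.

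**Figure D4:**
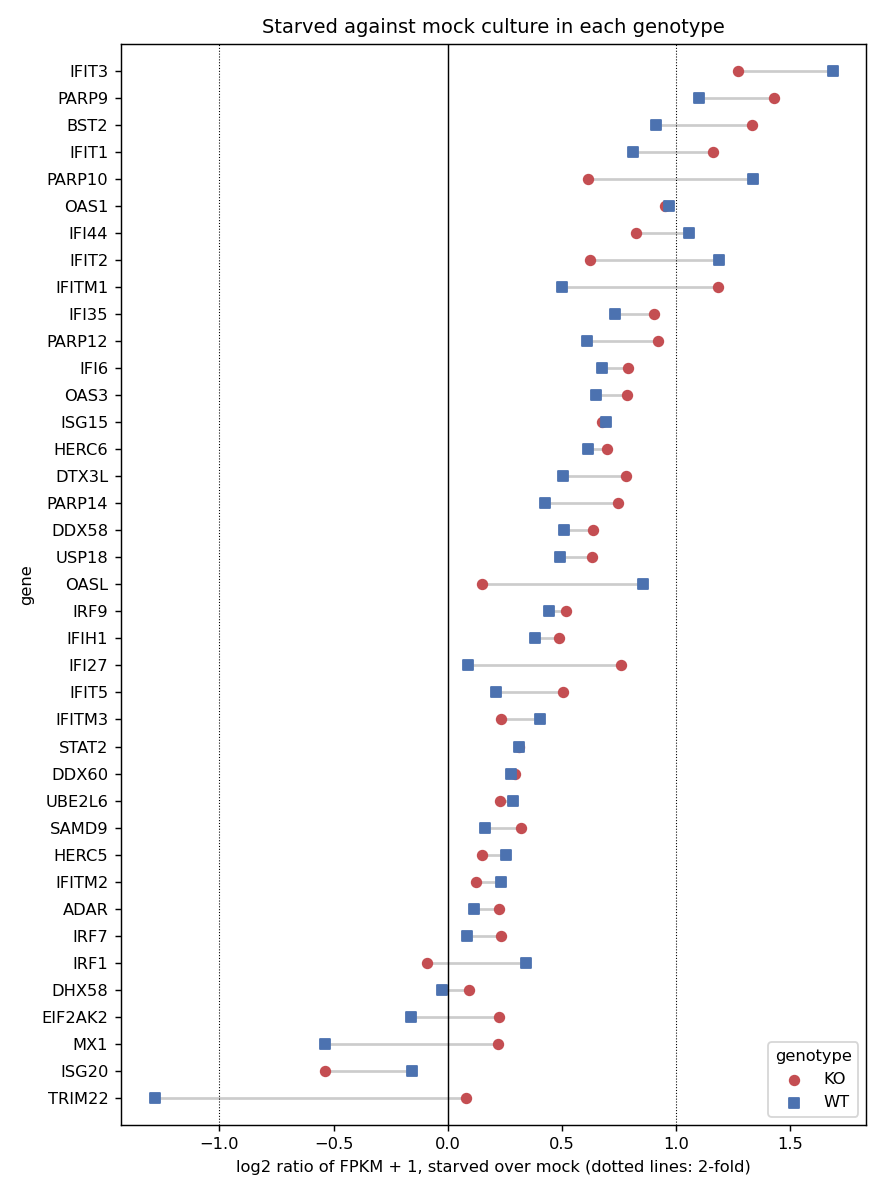
Log2 ratio of FPKM + 1, starved over mock, for each of the 39 genes in KO (circles) and WT (squares), ordered by the mean of both. Dotted lines mark 2-fold. IFIT3 and PARP9 lie past 2-fold in both genotypes, and TRIM22 is lower in starved WT cells.

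In KO cells 5 genes were at least 2-fold higher after starvation and 0 lower, where 0.951% of all features were higher and 1.18% lower. In WT cells 5 were higher (9 under either rescaling) and 1, TRIM22, lower, where 1.03% were higher and 3.91% lower. TRIM22 passed the filter through WT mock alone. IFIT3 and PARP9 were 2-fold higher in both genotypes, as were 0.282% of all features. IFIT3 rose by 1.48 ± 0.15 on average (limma adjusted p = 0.0175), with 1.27 in KO and 1.68 in WT. PARP9 rose by 1.26 ± 0.10 (limma adjusted p = 0.017), with 1.43 in KO and 1.10 in WT. All 5 genes of the PARP-DTX3L group rose on starvation, PARP14 by 0.59 ± 0.10 although it was among the genes lower in KO cells.

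Genes of the IFIT, IFI, OAS, ISG15 and sensor groups also rose. IFIT1 rose by 0.99 ± 0.11, OAS1 by 0.96 ± 0.08, IFI44 by 0.94 ± 0.10 and IFI35 by 0.82 ± 0.08 (limma adjusted p from 0.017 to 0.0175). IFI6 rose by 0.73 ± 0.10, OAS3 by 0.72 ± 0.09, ISG15 by 0.68 ± 0.13 and HERC6 by 0.66 ± 0.08 (limma adjusted p from 0.0175 to 0.0299). DDX58 and IFIH1 rose by 0.57 ± 0.07 and 0.43 ± 0.09, and IRF9 and STAT2 by 0.48 ± 0.07 and 0.31 ± 0.06. BST2 and IFITM1, the genes with the lowest KO to WT ratios, also rose on starvation, by 1.12 ± 0.14 and 0.84 ± 0.20 (limma adjusted p = 0.0177 and 0.0447). The IFITM1 call was lost without the variance trend (limma adjusted p = 0.0538). In KO cells BST2 had 5.13 FPKM starved and 1.43 FPKM mock, and in WT cells it had 58.3 FPKM starved and 30.5 FPKM mock.

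Some of the genes highest in KO cells had no call on starvation. IFI27 differed by 0.76 in KO and 0.09 in WT (averaged 0.42, limma adjusted p = 0.161). IRF7 differed by 0.16 and SAMD9 by 0.24 on average, and DDX60, EIF2AK2 and ADAR also did not pass. The difference between the genotypes' responses was not tested, because it is the error term of the fit. It ranged from -0.72 for PARP10 to 1.36 for TRIM22 (response in KO minus response in WT), with a median of 0.11 for the 39 genes and 0.12 for all features.

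Refed cells stayed close to starved cells. Averaged over genotypes no gene rose or fell in refed against starved cells by limma, where 0.773% of all features rose and 0.052% fell. At an unadjusted p under 0.05 the same fit gave 3 of the 39 genes and 1292 of 13456 features, both directions together. The median log2 difference was -0.02 for the genes and -0.01 for all features. OASL was the 1 gene at least 2-fold higher in refed cells, in each genotype. The background for 2-fold higher was 1.98% of features in KO and 1.69% in WT, and for 2-fold lower, which no gene reached, 0.446% and 0.684%. OASL had 9.13, 10.3 and 22.04 FPKM in mock, starved and refed KO cells, against 6.90, 13.3 and 30.9 FPKM in mock, starved and refed WT cells. The refed group was the highest of each genotype, and the averaged difference of 1.10 ± 0.22 had a limma adjusted p of 0.179. ISG15 was also highest in the refed group of each genotype, by 0.30 in KO and 0.63 in WT over starved cells (averaged 0.47, limma adjusted p = 0.338).

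**Figure D5:**
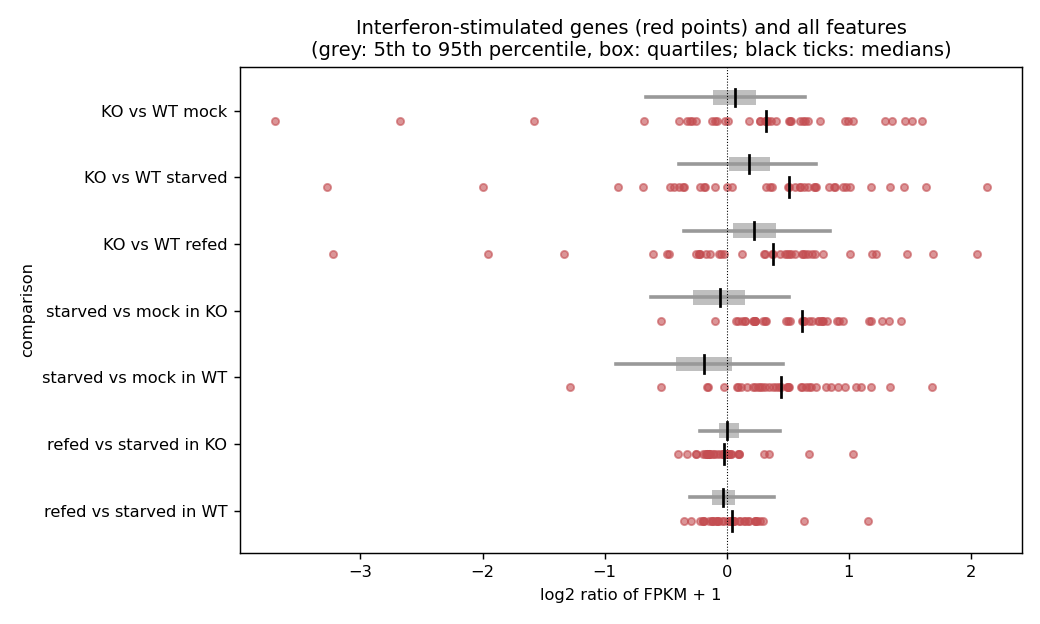
Log2 ratios of FPKM + 1 for the 39 genes (points) and for all 13456 features (line from the 5th to the 95th percentile, box for the quartiles) in the 7 comparisons of 1 group with another, with medians as ticks. The median of the genes stands at 0.62 in KO and 0.44 in WT for starved over mock, against -0.06 and -0.19 for all features.

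By level, a few genes made up most of the RNA of the list. The summed FPKM of the 44 genes was 2645, 3968 and 4248 in mock, starved and refed KO cells, against 1413, 2037 and 2262 in mock, starved and refed WT cells. IFI6, ISG15, IFI27 and IFITM3 accounted for 83.6%, 84.2% and 85.4% of it in KO cells and 70.1%, 70.8% and 74.4% in WT cells. The sum therefore follows these 4 genes and not the smaller effectors.

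The rest of the pathway was read from further lists. Their KO against WT counts have the same background as above: 28.7% of features rose and 4.58% fell, with a general shift of 0.16. Each is therefore given with its values under the 2 rescalings. For the starvation counts the background was 5.83% of features that rose and 19.4% that fell. After rescaling it was 15.2% and 14.5% by median ratio, or 14.6% and 15.3% by upper quartile. None of the 21 interferon genes present in the tables reached 1 FPKM in any group. IFNL1, a type III interferon, was highest in refed cells, at 0.775 FPKM in KO and 0.746 FPKM in WT, and IFNB1 did not exceed 0.162 FPKM. Of 6 receptor subunits, IFNLR1, the lambda-specific chain, rose in KO cells by 0.54 ± 0.07 and IL10RB, its partner, by 0.25 ± 0.06 (limma adjusted p = 0.0104 and 0.0359). IFNLR1 kept its call under median-ratio and upper-quartile rescaling (0.41 and 0.39), and IL10RB lost it (0.07 and 0.05). Under these scalings 1 subunit rose and 1 or 2 fell. On starvation 3 receptor subunits fell and 0 rose: IFNAR2 by 0.75 ± 0.08, IL10RB by 0.62 ± 0.07 and IFNGR1 by 0.41 ± 0.08. The count that fell was also 3 under both rescalings. IFNAR1 and IFNGR2 had no call in either comparison as deposited. These 3 subunits thus stood lower in the starved cells, in which 21 of the target genes stood higher.

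Among the JAK and STAT genes, TYK2, a receptor-bound kinase, rose in KO cells by 0.25 ± 0.06 (limma adjusted p = 0.044), a call lost under both rescalings (0.07 and 0.04), and STAT3 fell on starvation by 0.58 ± 0.08. Of 10 sensors and adaptors outside the 44 genes, 4 rose in KO cells and 0 fell, led by TICAM1, the adaptor of TLR3, with 0.48 ± 0.06. Under both rescalings 0 of the 10 rose in KO cells and 2 fell, TMEM173 (STING) and IKBKE. Starvation raised 3, among them TMEM173 by 0.68 ± 0.11, and TBK1 fell by 0.32 ± 0.08. After rescaling 5 rose and 0 fell. IRF3, the factor that induces IFNB1, had 44.8 to 52.2 FPKM in KO cells and 45.6 to 58.2 FPKM in WT cells, and did not pass in any averaged comparison.

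Of 9 negative regulators, 4 rose in KO cells and IRF2 fell. SOCS1, an inhibitor of JAK kinases, rose by 1.03 ± 0.15 (limma adjusted p = 0.0138), and PTPN11 by 0.40 ± 0.06. Under median-ratio rescaling 2 rose and 3 fell, and under upper-quartile rescaling 1, SOCS1 (0.83), rose and 3 fell. On starvation PIAS1 and PTPN11 fell (22.2% of the 9, close to the 19.4% of all features) and none rose. A further list of 34 measured interferon-stimulated genes outside the 44 had 17 that rose and 1 that fell in KO cells, with a median of 0.27. After rescaling 13 rose and 2 fell. The largest were TRIM34 at 0.97 ± 0.07, SP100, a nuclear body protein, at 0.96 ± 0.09, the capsid sensor TRIM5 at 0.88 ± 0.08 and HELZ2 at 0.87 ± 0.05. On starvation 9 of the 34 rose and 1 fell, with a median of 0.16, and 16 or 14 rose after rescaling. NMI, the partner of IFI35, rose by 1.01 ± 0.09, SP110 by 0.69 ± 0.10 and TRIM14 by 0.60 ± 0.07, and TRIM5 fell by 0.67 ± 0.10. The share that rose was 26.5% here and 53.8% in the 39 genes, against 5.83% of all features.

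Genes with and without an ISRE match in the window were set side by side, and the difference between them was not tested. On starvation 13 of 22 measured genes with a match rose, with a median of 0.61 (range -0.35 to 1.48), and 6 of 9 genes with a window but no match rose, with a median of 0.48 (range 0.13 to 0.96). In KO cells 12 of the 22 rose and 3 fell, with a median of 0.47, and 7 of the 9 rose and 0 fell, with a median of 0.46. BST2 and IFITM1, which fell, carry matches as do IFI6 and ISG15, which rose, as shown in the stretches printed above. OAS1, IRF9, DDX58, HERC6, IFI35 and STAT2 rose in both comparisons without a match in their windows, although the KO calls of IFI35 and STAT2 were lost on rescaling. Only the exact core within the window was searched, so an absent match does not show that a gene lacks an ISRE. The windows of OAS1, IRF9 and IFI35 held a gamma-activated site match.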

How the data were processed

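RNA of 12 HCT116 samples (KO and WT, 3 states, 2 per group) was enriched for polyadenylated transcripts, per the labels' protocols. FastQC, cutadapt, TopHat2 and build hg19 are named, per the submitters' processing notes. The FPKM program, its annotation and its use of strand are not given in the sources used here. The authors deposited FPKM in 6 tables, 1 column per group. Low values did not share whole-read steps (at most 4.63% of genes had the commonest ratio), so depth is unknown.

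Values were used as deposited. Features that reached 1 FPKM in any group entered limma 3.58.1 (R 4.3.3; variance trend, 2 residual degrees of freedom, Benjamini-Hochberg) on log2(FPKM + 1), a scale that understates changes of low genes. Comparisons of 1 group with another have no test. "Rose" and "fell" mark calls. Alternatives covered pseudocount, filter, scaling, trend, short RNAs and each value left out. The fit was tested on simulated data. Members, lists and rules were chosen with earlier results of these data known. Full values are given for 15 genes at 5 FPKM or more with a 2-fold single or averaged difference. From other lists, up to 4 genes with the largest differences are named. Promoters came from RefSeq (GRCh38.p14); overlaps from GENCODE 29. Python 3.11.15, numpy 2.4.6, pandas 2.3.3 and matplotlib 3.10.9 were used.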

Additional observations from a re-analysis of the deposited data

How the results depend on the processing

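No paired analysis was possible because each group has 1 deposited column, so the sample numbers 1 and 2 carry no separate values and no replicate block could be fitted. No called gene reversed under any setting run. The 22 genes that rose in KO against WT were 8 with no filter on low values and 0 to 23 with 1 value left out. The 4 that fell were 7 by upper-quartile scaling, 6 by median ratio, 2 with no filter and 0 to 6 with 1 value left out. The 21 that rose on starvation were 0 with no filter and 0 to 21 with 1 value left out, and the 0 that fell were 0 to 2. Shares of all features moved as well. With 1 value left out 0.0223% to 37.5% of them rose in KO cells and 0.0149% to 5.01% fell. On starvation 0% to 4.71% of all features rose and 0% to 26.6% fell in those fits. Refed against starved stayed at 0 in either direction with any value left out. Of the 2-fold counts, the 6 higher in KO than WT when refed were 3 under either rescaling, the 5 higher in starved than mock WT cells were 9 under either, the 1 lower there was 2 with a pseudocount of 0.1 FPKM and 0 with a minimum of 5 FPKM, and the 1 higher in refed than starved KO cells was 0 by upper quartile. Over called genes and settings other than leaving out a value, 281 results kept their call and 46 lost it; with a value left out, 73 kept it and 209 lost it. Each fit on 5 values has 1 residual degree of freedom and not 2. This also holds for the fits without KO mock or without WT mock, in which every KO against WT call was kept. For that comparison both fits use only the starved and refed values, so they are not separate checks. The cause of the lost calls was not tested.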

Other observations

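The genes within 2 places of BST2, IFITM1, IFI27, SAMD9, IFI6 and IRF7 on the chromosome were looked up after the values of those genes had been seen, and they have no test. Of the protein-coding genes found, those outside the list of 44 differed between KO and WT by at most 0.71 on the log2 scale, for RASSF7 beside IRF7 in refed cells. BISPR, a noncoding gene next to BST2, had 0.0885, 0.218 and 0.136 FPKM in mock, starved and refed KO cells, against 0.690, 1.19 and 1.05 FPKM in mock, starved and refed WT cells, so it was lower in KO in each state, as BST2 was. The next protein-coding gene beyond it, MVB12A, had 36.9, 32.8 and 33.8 FPKM in KO cells and 31.9, 30.5 and 26.8 FPKM in WT cells. PLVAP, on the other side of BST2, had 0.0195, 0.00685 and 0.00644 FPKM in KO cells, against 0.411, 0.141 and 0.122 FPKM in WT cells, also lower in KO in each state at levels far below 1 FPKM. Its highest value was in WT mock, the group that also held the endothelial markers, and their part in it was not tested. GTPBP3, beyond it, had 18.5, 20.6 and 22.4 FPKM in KO cells and 16.1, 16.9 and 15.4 FPKM in WT cells. Beside IFI27, its relatives IFI27L1 and IFI27L2 stayed within 0.45 log2 units between the genotypes in every state, whereas IFI27 differed by 1.46 to 2.13.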
